A study of Mus musculus with 4 samples.

Results

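Pax1 to Pax9 are the 9 mouse genes of the paired box family of transcription factors, and they were examined in a list of the genome regions recovered with Zeb1 in mouse embryonic stem cells (mESC). Members were taken by gene symbol. Every peak that the deposited list assigns to one of these genes was included, and a gene to which the list assigns no peak was counted as being without an assigned peak. This gave 22 of the 17435 peaks of the list, and 9 of the 21774 protein-coding genes of the reference annotation.

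Zeb1 is a zinc finger transcription factor best known as a repressor of epithelial genes. Its positions in the genome of mESC were mapped by chromatin immunoprecipitation followed by sequencing (ChIP-seq), in which DNA fragments cross-linked to a protein are recovered with an antibody and sequenced. The labels give 3 Zeb1 ChIP libraries, made with 8 μg of anti-Zeb1 antibody, and 1 input library of genomic DNA made without antibody, which measures the background. Both kinds of library came from D3 cells, an established mESC line, kept without feeder cells in ground state medium (GS), which is serum-free and held LIF at 20 ng/mL together with PD0325901 at 1 μM, which blocks MEK, and CHIR99021 at 3 μM, which blocks GSK-3. The labels name no genetic change and no second condition. Chromatin was fixed with 1% formaldehyde and sheared to about 200 bp.

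Pax proteins bind DNA through the paired domain, and several also carry a homeodomain. They are regulators of organ formation in the embryo, among them the eye, kidney, thyroid, thymus, vertebral column, muscle, pancreas and neural tube. By sequence they fall into 4 subgroups, Pax1 and Pax9, then Pax2, Pax5 and Pax8, then Pax3 and Pax7, and last Pax4 and Pax6.

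A peak is a region with more ChIP reads than input. For each one the list gives values averaged by the authors, namely the reads of the ChIP (treatment reads), the reads of the input at the same place, and the enrichment, which is the treatment divided by the input after the authors' scaling for mapped reads. The printed reads do not give the enrichment directly. The enrichment was 1.75 to 2.41 times the ratio of the printed treatment to input reads in the Pax peaks, with a median of 2.05 times, and 2.07 times as the median of all peaks with an input read. No value per library was analysed here, so the values below carry no replicate error and differences between peaks were not tested. The authors' list also gives the distance from the centre of the peak to the transcription start site (TSS) of the assigned gene, and a peak less than 5 kb from it is called a promoter peak here. Upstream and downstream are relative to the direction of the gene. Positions are those of mm10, the same build as the reference GRCm38.p6.

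At least 1 peak was assigned to 8 of the 9 Pax genes, whereas 51.4% of all protein-coding genes had one. Pax4 was the gene without. Promoter peaks were assigned to 7 Pax genes, all except Pax3 and Pax4, against 43.5% of all protein-coding genes. With a limit of 1 kb in place of 5 kb, 3 Pax genes had such a peak, Pax6, Pax7 and Pax8, against 39.6% of all protein-coding genes. These counts use the TSS of the list. By the nearest curated TSS, Pax2 also had peaks within 1 kb, at 149 and 448 bp. At least 3 peaks were assigned to 3 Pax genes, Pax2 with 8 and Pax7 and Pax9 with 3 each, against 4.42% of all protein-coding genes. As few as 12 protein-coding genes (0.0551%) had 8 or more peaks, and Pax2, a regulator of kidney, ear and optic nerve development, was one of them. A peak covered a curated TSS of 5 Pax genes, namely Pax2, Pax5, Pax6, Pax7 and Pax8, and 47.8% of the protein-coding genes with a curated TSS were covered in this way.

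The enrichment of the Pax peaks lay close to that of the whole list. It ranged from 2.55 to 13.0 with a median of 6.86, and the median of all peaks was 6.50. Of the 22 peaks, 12 lay above that median, and 937 peaks of the list had an enrichment above 13.0. The median length of the Pax peaks was 2325 bp, and that of all peaks 1850 bp. The median read density was 22.2 treatment reads per kb in Pax peaks and 25.1 in all peaks, and 7.50 against 8.07 input reads per kb. Among the 22 Pax peaks, 7 lay above the median treatment density of all peaks and 8 above the median input density.

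**Figure D1:**
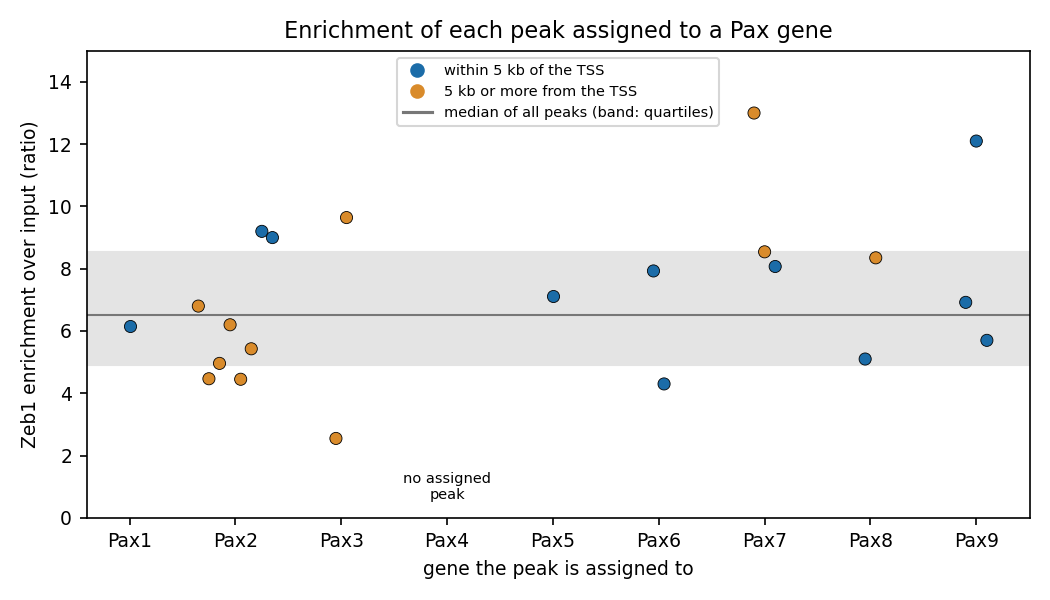
Enrichment over input (ratio, vertical axis) of each of the 22 peaks by the Pax gene it is assigned to (horizontal axis); blue points are within 5 kb of the TSS, orange points farther away, the grey line is the median of all 17435 peaks (6.50) and the band their quartiles (4.91 to 8.53). Points of most genes lie within or near the band, the highest being a Pax7 peak (13.0) and a Pax9 peak (12.1) and the lowest a Pax3 peak (2.55).

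**Figure D2:**
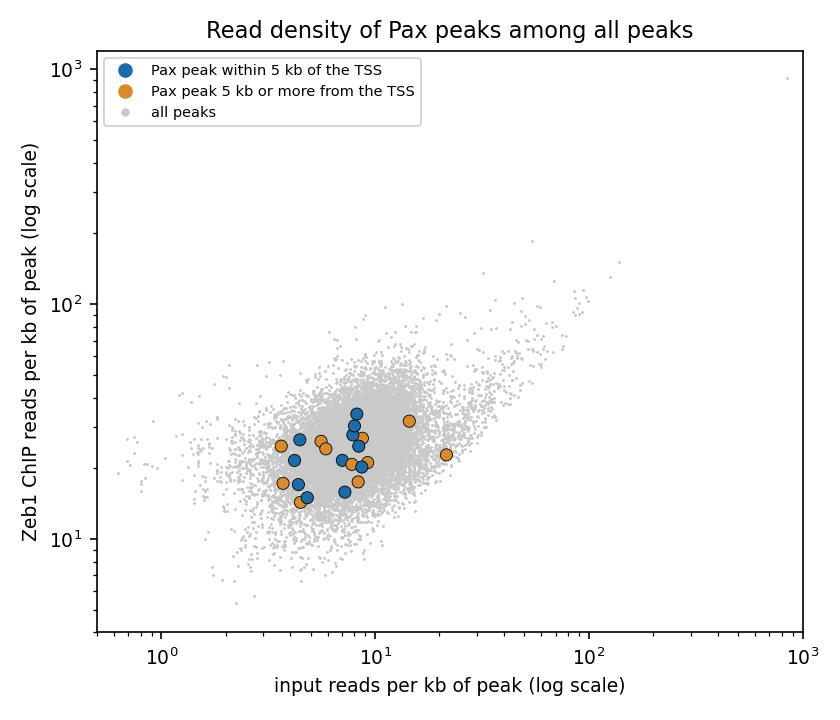
Zeb1 ChIP reads per kb of peak (vertical axis, log scale) against input reads per kb (horizontal axis, log scale), each as the authors' mean, for Pax peaks within 5 kb of the TSS (blue), Pax peaks farther away (orange) and all other peaks with an input read (grey). The Pax peaks lie among the other peaks, from 14.3 to 34.05 ChIP reads per kb. Among the Pax peaks, the point with the highest input density (21.6 reads per kb) is the Pax3 peak in a LINE-1 element.

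The sequence of each peak was searched on both strands for the Zeb1 motif, spelled CNCACCTG, CNTACCTG, TNCACCTG or TNTACCTG, where N is any base. The forms with CACCTG hold an E-box, and those with TACCTG do not. A match describes the letters of the region and does not show that the protein was bound at that place. The motif occurred in 19 of the 22 Pax peaks (86.4%, 95% Wilson interval 66.7 to 95.3%, counting error only) and in 76.8% of all peaks. Because long peaks hold more motifs by length alone, the share was also taken over all peaks within 10% of the length of each Pax peak, and it averaged 82.1%. The 3 Pax peaks without a match were the promoter peak of Pax7, the nearer of its intron peaks and the Pax3 peak in a LINE-1 element. The middle 200 bp held a match in 2 of 22 Pax peaks (9.09%, interval 2.53 to 27.8%) against 16.6% of all peaks. Both of these were Pax9 promoter peaks, so that the share among promoter peaks was 18.2% for Pax and 14.7% for all peaks. Among peaks 5 kb or more from the TSS, it was 0 of 11 for Pax (interval 0 to 25.9%) and 19.7% for all peaks. In total the Pax peaks held 32 matches, 19 of them in promoter peaks, and these 19 are shown with the genes below because they are the places in Pax promoter peaks where the motif lies. In each, capitals mark the motif, the sequence is written 5′ to 3′ on the strand that carries it, and the stretch is 48 bases, or 30 bases where it touches an untranslated region (UTR) of a RefSeq or GENCODE transcript.

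Pax2 had 8 peaks, spread over the gene start and the region upstream of it on chromosome 19. The list measures their distance from 1 TSS at position 44757394, while the reference has 3 curated TSSs, at positions 44746601, 44755752 and 44756906. The peak with the most treatment reads of any Pax peak, at chr19:44754401-44758000, covered the last 2 of them and had 123 treatment and 29.6 input reads and an enrichment of 9.20, higher than 80.3% of all peaks. Next to it inside the gene lay a peak at chr19:44758451-44762200 with 81.0 treatment and 15.8 input reads and an enrichment of 9.0. These were the strongest Pax2 peaks, and they were separated by less than 1 kb.

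The other 6 Pax2 peaks were weaker, with enrichments from 4.45 to 6.80. A peak at chr19:44746101-44747400 is 10644 bp upstream of the TSS the list uses and is called intergenic there, but it covers the first of the curated TSSs and its centre is in the 5′ UTR of exon 1 of that transcript. It had 27.5 treatment and 12 input reads and an enrichment of 4.45. In the same way the peak at chr19:44748901-44751450, listed as intergenic, is in intron 1 of the longer transcript and had 53.0 treatment and 19.9 input reads and an enrichment of 5.43. The remaining 4 lay outside the gene. By the nearest curated TSS they were 11951, 26326, 71751 and 75376 bp upstream, with enrichments of 6.20, 4.96, 4.47 and 6.80, and Pax2 had the nearest protein-coding TSS for each of them. The nearest protein-coding genes are Hif1an, 170326 bp before the gene, and Slf2, 80236 bp after it.

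A further peak at the opposite end of Pax2 had a higher enrichment than any assigned to it, though fewer treatment reads than the strongest of them. It lay at chr19:44834851-44838500, with its centre in the 3′ UTR in exon 12 of 12, and had 104 treatment and 16.6 input reads and an enrichment of 13.3, higher than 94.99% of all peaks. The list assigns it to 1700039E22Rik, a noncoding gene whose TSS is 737 bp away. The 2 strongest assigned Pax2 peaks each held 3 matches of the motif, which are given here in genome order with the feature of the curated transcript at the match.
Pax2, chr19:44755922-44755951, minus strand, 5′ UTR in exon 1, 184 bp downstream of the nearest curated TSS: tctggctagaaCCCACCTGccttggtggga
Pax2, chr19:44756728-44756757, plus strand, intron 1, 164 bp upstream of the nearest curated TSS: tgcagccgcaaCCCACCTGgggccagccca
Pax2, chr19:44757659-44757706, plus strand, intron 2: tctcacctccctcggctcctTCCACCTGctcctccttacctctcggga
Pax2, chr19:44759925-44759954, minus strand, intron 2: ttggtagggacCGCACCTGcggacttagga
Pax2, chr19:44761021-44761068, minus strand, coding exon 3: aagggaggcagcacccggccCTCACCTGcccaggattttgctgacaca
Pax2, chr19:44761863-44761910, minus strand, coding exon 4: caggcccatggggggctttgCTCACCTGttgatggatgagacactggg

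Pax5, which directs B cell development, had 1 assigned peak and 3 more inside the gene that the list gives to another name. The assigned peak at chr4:44710201-44714900 was the longest of the Pax peaks, 4700 bp. It covered the curated TSS, its centre was 2110 bp upstream by the list, and it had 80.1 treatment and 20.6 input reads and an enrichment of 7.11. The noncoding gene 5730488B01Rik lies within Pax5 on the reference, and the list assigns to it a peak in intron 1 of Pax5 at chr4:44702701-44705050 (91.0 treatment reads, 19.2 input reads, enrichment 10.3), one in intron 5 at chr4:44663401-44665250 (enrichment 4.99) and one in intron 8 at chr4:44555951-44559650 (enrichment 6.04). The last is 152894 bp downstream of the Pax5 TSS and 145000 bp from the TSS it is assigned to. By overlap with the gene, Pax5 thus held 4 peaks, and the one with the highest enrichment was not assigned to it. The list's Ensembl annotation nevertheless calls that peak, in intron 1, a promoter of the Ensembl gene it also names for the intron 8 peak, which is Pax5. The promoter peak held 2 matches, and neither was in the 250 bases before the TSS.
Pax5, chr4:44710338-44710385, plus strand, intron 1, 333 bp downstream of the TSS: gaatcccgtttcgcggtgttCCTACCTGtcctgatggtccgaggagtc
Pax5, chr4:44713327-44713374, plus strand, outside the gene, 2656 bp upstream of the TSS: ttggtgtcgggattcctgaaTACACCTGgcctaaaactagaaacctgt

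The 250 bases before the Pax5 TSS lay wholly inside this peak and are shown as an example of a covered promoter without the motif. They come from RefSeq promoters of GRCm38.p6, at chr4:44710695-44710944 on the minus strand, and capitals mark CACCT, the first 5 bases of the E-box CACCTG, which is found there once.
Pax5 promoter: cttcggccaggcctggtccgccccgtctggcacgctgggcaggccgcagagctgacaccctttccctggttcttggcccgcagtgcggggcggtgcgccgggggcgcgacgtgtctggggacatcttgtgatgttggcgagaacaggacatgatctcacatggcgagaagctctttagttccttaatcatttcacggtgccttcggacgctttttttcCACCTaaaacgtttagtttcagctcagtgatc
Of the 32851 RefSeq promoters of this length, 46.0% held CACCT on either strand, 17.2% held CACCTG and 14.3% held the Zeb1 motif. The table had promoters for 7 Pax genes, Pax1, Pax2, Pax5, Pax6, Pax7, Pax8 and Pax9. Among them 1 promoter held the motif, that of the last Pax2 TSS, with the match 164 bp upstream shown above.

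Pax8, a regulator of thyroid and kidney development, had a promoter peak and a far one. The promoter peak at chr2:24473551-24475950 covered the TSS and had 48.6 treatment and 20.8 input reads and an enrichment of 5.10, higher than 27.3% of all peaks. The far peak at chr2:24606051-24609150 was 132001 bp upstream and had 53.5 treatment and 11.5 input reads and an enrichment of 8.35. Its centre was in a coding exon of another gene, exon 46 of 47 of Cacna1b, which encodes a calcium channel subunit and is the neighbour of Pax8 on that side. No other curated protein-coding TSS was nearer to it than that of Pax8. The list's Ensembl annotation, however, calls it a promoter of a different Ensembl gene from the one named at the Pax8 promoter peak. Although it was the weaker of the pair, the promoter peak held 4 matches, the most of any Pax peak, one of them 20 bp from the TSS.
Pax8, chr2:24474444-24474491, minus strand, intron 2: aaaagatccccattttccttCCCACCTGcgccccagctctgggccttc
Pax8, chr2:24474934-24474981, minus strand, intron 2: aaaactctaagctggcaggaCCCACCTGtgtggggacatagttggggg
Pax8, chr2:24475469-24475498, plus strand, intron 1: cccctaggtgaCATACCTGgccggctggcc
Pax8, chr2:24475565-24475594, plus strand, 5′ UTR in exon 1, 20 bp downstream of the TSS: gtttgctcccaTCCACCTGgcatcgccagc

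Pax6 controls eye, brain and pancreas development and has 4 curated TSSs. Its stronger peak at chr2:105673801-105677250 was centred 12 bp from the TSS the list uses and had 95.7 treatment and 27.1 input reads and an enrichment of 7.93. The second peak at chr2:105680201-105682000 is 4971 bp downstream by the list. Measured to the nearest curated TSS, it was 1363 bp upstream of the last one, within intron 3 of the longer transcript, and it had 28.5 treatment and 13.0 input reads and an enrichment of 4.30, which exceeded 16.1% of all peaks. The first and the last of the Pax6 TSSs were not covered. The adjacent noncoding gene Paupar had the remaining peaks within 100 kb of the Pax6 start, at 8096 and 98821 bp upstream of it, with enrichments of 4.16 and 2.30. The list places the farther of these in a LINE-1 element. It had 29.6 treatment and 27.7 input reads, and its enrichment exceeded 0.803% of all peaks. The Pax6 promoter peaks held 3 matches.
Pax6, chr2:105674933-105674980, minus strand, intron 1: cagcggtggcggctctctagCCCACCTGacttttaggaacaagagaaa
Pax6, chr2:105681349-105681396, minus strand, intron 3: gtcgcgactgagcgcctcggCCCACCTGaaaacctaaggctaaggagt
Pax6, chr2:105681896-105681943, plus strand, intron 3: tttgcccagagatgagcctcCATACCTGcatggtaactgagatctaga

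Pax4, the partner of Pax6 in its subgroup and a regulator of pancreatic islet development, was the only member with no assigned peak, and no peak overlapped the gene with 5 kb on either side. It also differed from the rest of the family in its surroundings, since 5 other protein-coding TSSs lay within 100 kb of its own, against at most 1 for each other Pax gene. The closest peak began 15534 bp from the gene, at chr6:28425101-28426800, and was one of the stronger ones of the list, with 59.0 treatment and 5.50 input reads and an enrichment of 20.1, higher than 98.7% of all peaks. The list assigns it to Fscn3, and the peaks beyond it to Arf5 (enrichment 4.7) and Gcc1 (enrichment 5.55).

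**Figure D3:**
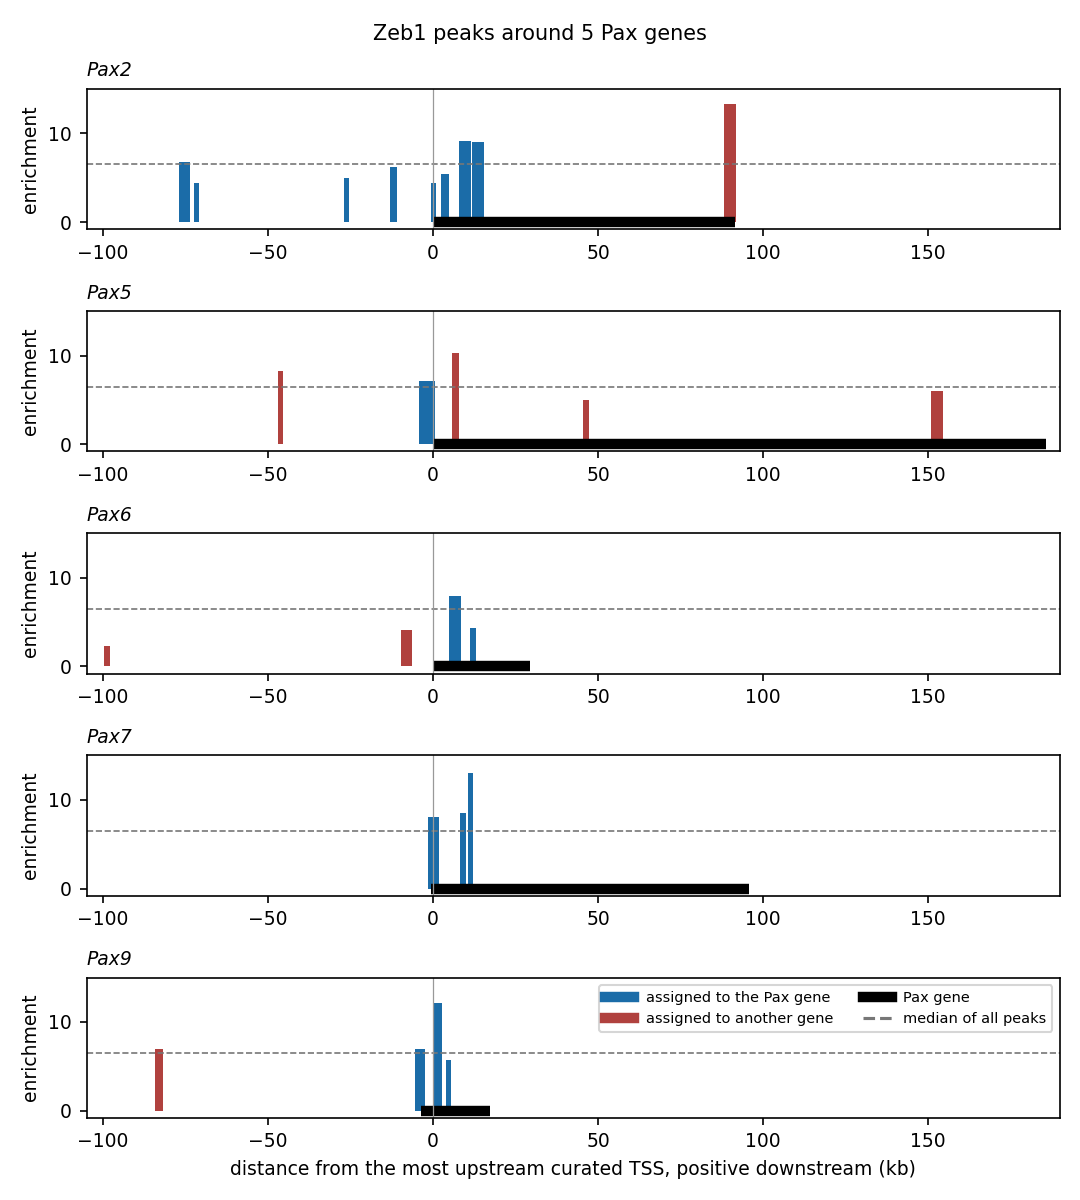
Peaks around Pax2, Pax5, Pax6, Pax7 and Pax9, drawn by distance from the most upstream curated TSS of each gene (kb, positive downstream); bar height is the enrichment over input, bar width the length of the peak (drawn at least 0.9 kb wide), blue bars are assigned to the Pax gene, red bars to another gene, black lines are the genes and the dashed line the median of all peaks. In Pax2 and Pax5 the tallest bar inside the gene is red, with enrichments of 13.3 and 10.3, whereas in Pax7 and Pax9 each bar inside the gene is blue.

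Pax7 and Pax3 specify muscle progenitors and neural crest. Pax7 had 3 peaks, all overlapping the gene, and the promoter peak extended beyond the gene start. The promoter peak at chr4:139831101-139834400 was centred 218 bp downstream of the TSS, with 100 treatment and 26.4 input reads and an enrichment of 8.07. The other Pax7 peaks were a pair in intron 4 of 8, less than 1 kb from each other. The nearer, at chr4:139822951-139824650, had 41.1 treatment and 10.0 input reads and an enrichment of 8.54, and the farther, at chr4:139820701-139822350, had 41.0 treatment and 6 input reads and an enrichment of 13.0. Both thus had nearly the same number of treatment reads and differed in the input. The farther one had the highest enrichment of the Pax peaks, above 94.6% of all peaks, while its treatment reads per kb were above 48.7% of all peaks and its input reads per kb above 4.38%. None of the 3 held CACCTG, and the farther intron peak alone held the motif, once, in the form with T before ACCTG.

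Pax3 had no peak in the gene or within 5 kb of it. The nearer of its assigned peaks, at chr1:78215401-78218800, was 19964 bp upstream and was strong, with 88.6 treatment and 19 input reads and an enrichment of 9.64, above 83.2% of all peaks. Its centre was in coding exon 2 of 2 of Gm2102, the next protein-coding gene on that side, whose TSS was 1170 bp away. The other peak, at chr1:77939801-77941400, was 256536 bp downstream of the TSS, between Pax3 and Epha4, and the list places it in a LINE-1 element of type L1Md_T. It had 36.5 treatment reads and 34.5 input reads, and its enrichment of 2.55 exceeded 2.13% of all peaks. Its input reads per kb exceeded 97.5% of all peaks, which no other Pax peak reached. Neither Pax3 peak overlapped the gene, and by the nearest protein-coding TSS the stronger peak belongs to Gm2102.

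By the nearest curated TSS, Pax2 had the most peaks within 5 kb, at 149, 448, 3419 and 3574 bp. By the TSS the list uses, Pax9, needed for thymus and tooth development, had the most promoter peaks of any Pax gene. It had 3, although its curated TSS itself was not covered. The reference gene begins farther upstream, at position 56691693, which lies inside the peak at chr12:56690101-56693050. The list's Ensembl annotation calls that peak a promoter of Pax9. The strongest, at chr12:56695851-56698100, was centred 1336 bp downstream by the list, in coding exon 2 of 4, and had 59.5 treatment and 10.0 input reads and an enrichment of 12.1, above 92.8% of all peaks. A second at chr12:56690101-56693050 lay 4064 bp upstream with 44.2 treatment and 14.2 input reads and an enrichment of 6.92, and the last at chr12:56699401-56700950 lay 4536 bp downstream in intron 3 with 38.5 treatment and 13.0 input reads and an enrichment of 5.70. Each held 1 match, 28, 165 and 20 bp from the peak centre in the order shown, so that Pax9 was the Pax gene whose matches were most central.
Pax9, chr12:56691580-56691627, plus strand, outside the curated transcript: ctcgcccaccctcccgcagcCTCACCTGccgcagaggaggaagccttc
Pax9, chr12:56697117-56697164, plus strand, coding exon 2: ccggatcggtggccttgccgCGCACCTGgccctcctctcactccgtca
Pax9, chr12:56700132-56700179, minus strand, coding exon 3: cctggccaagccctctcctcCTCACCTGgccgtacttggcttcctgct

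Pax1, which acts with Pax9 in the sclerotome, the source of the vertebrae, had 1 peak. It lay in intron 3 of 4 at chr2:147367251-147369100, 3181 bp downstream of the TSS, with 40.0 treatment and 13.0 input reads and an enrichment of 6.15. The list's Ensembl annotation calls this peak a promoter. Another peak 26169 bp upstream of the Pax1 TSS, with an enrichment of 7.25, is assigned by the list to AI646519. The Pax1 peak held 1 match.
Pax1, chr2:147367305-147367352, plus strand, intron 2: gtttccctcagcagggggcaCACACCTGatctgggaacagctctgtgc

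By subgroup, Pax2, Pax5 and Pax8 together had 11 peaks with a median enrichment of 6.20, and all 11 held the motif. Pax3 and Pax7 had 5 peaks with a median enrichment of 8.54, and 2 of them held it. Pax1 and Pax9 had 4 peaks (median enrichment 6.54) and Pax4 and Pax6 had 2 (median enrichment 6.11), and the motif was found in each of these. The 3 Pax peaks without a match all belonged to Pax3 and Pax7. Of all peaks, 76.8% held the motif, and the share at the lengths of the Pax peaks averaged 82.1%. Differences between the subgroups were not tested.

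The E-box CACCTG, which is part of some forms of the motif and not of others, was in 16 of the 22 Pax peaks (72.7%, 95% Wilson interval 51.8 to 86.8%) and in 82.1% of all peaks. Split by distance from the TSS, it was found in 10 of 11 promoter peaks (90.9%, interval 62.3 to 98.4%), where the share of all promoter peaks was 81.8%, and in 6 of 11 distal peaks, those 5 kb or more away (54.5%, interval 28.0 to 78.7%), where the share of all distal peaks was 82.5%. These shares were not adjusted for length, and Pax promoter peaks were longer (median 2950 bp) than promoter peaks in general (1950 bp). Per kb, CACCTG was less frequent in the Pax promoter peaks (median 0.645) than in all promoter peaks (0.816). Its median density was also lower in the 11 distal Pax peaks, at 0.597 per kb, than in all distal peaks, at 1.25 per kb. The 5 distal Pax peaks without CACCTG were the pair in Pax7, the Pax3 peak in a LINE-1 element and the Pax2 peaks at the first TSS and in intron 1. The motif split in the same way was in 10 of 11 promoter peaks (90.9%) and 9 of 11 distal peaks (81.8%, interval 52.3 to 94.9%), and in 76.8% of all promoter and of all distal peaks. These splits depend on the TSS that the list uses, since the last 2 of the peaks without CACCTG lay within 5 kb of the first curated Pax2 TSS. With distances taken to the nearest curated TSS of the assigned gene, a choice made after seeing the data, CACCTG was in 10 of 13 promoter peaks (76.9%, against 81.9% of all promoter peaks) and 6 of 9 distal peaks (66.7%, interval 35.4 to 87.9%, against 82.4% of all distal peaks), its median density in those 9 was 0.882 per kb against 1.25 per kb, and the motif was in 12 of 13 (92.3%) and 7 of 9 (77.8%, against 76.6% of all distal peaks).

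Most of the distal Pax peaks lay in CpG islands, the stretches rich in CpG that mark many gene starts. The detailed annotation of the list gives 1 feature to each peak, and it named a CpG island for 7 of the 11 distal Pax peaks (63.6%, interval 35.4 to 84.8%) and for 10.3% of all distal peaks. These 7 belonged to Pax2, Pax3 and Pax7 alone, most of them to Pax2, and the Pax7 ones were the close pair in its intron. The interval treats such neighbouring peaks as independent. Distance is counted here from the TSS the list uses, and 2 of these 7 peaks covered a curated TSS, the one at the first Pax2 TSS and the one at the start of Gm2102. By the nearest curated TSS, a CpG island was named for 6 of 9 distal Pax peaks (66.7%) and 9.35% of all distal peaks. Distal peaks that covered a curated TSS were 18.2% of the distal Pax peaks (interval 5.14 to 47.7%) and 3.38% of all distal peaks. A LINE-1 element was named for 1 of the 11 (9.09%, interval 1.62 to 37.7%) and for 36.4% of all distal peaks. The ratio of observed to expected CpG had a median of 0.540 in distal Pax peaks and 0.347 in all distal peaks, and the GC content a median of 55.4% against 52.7%. For promoter peaks the order was the opposite, with a CpG ratio of 0.565 in Pax and 0.643 in all promoter peaks, and a GC content of 55.9% against 56.8%. A CpG island was named for 3 of the 11 Pax promoter peaks and for 17.3% of all promoter peaks, a count in which promoter peaks that the annotation names by their transcript are not included. Curated TSSs of any gene were covered by 5 of the 11 Pax promoter peaks (45.5%, interval 21.3 to 72.0%) and by 89.0% of all promoter peaks.

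**Figure D4:**
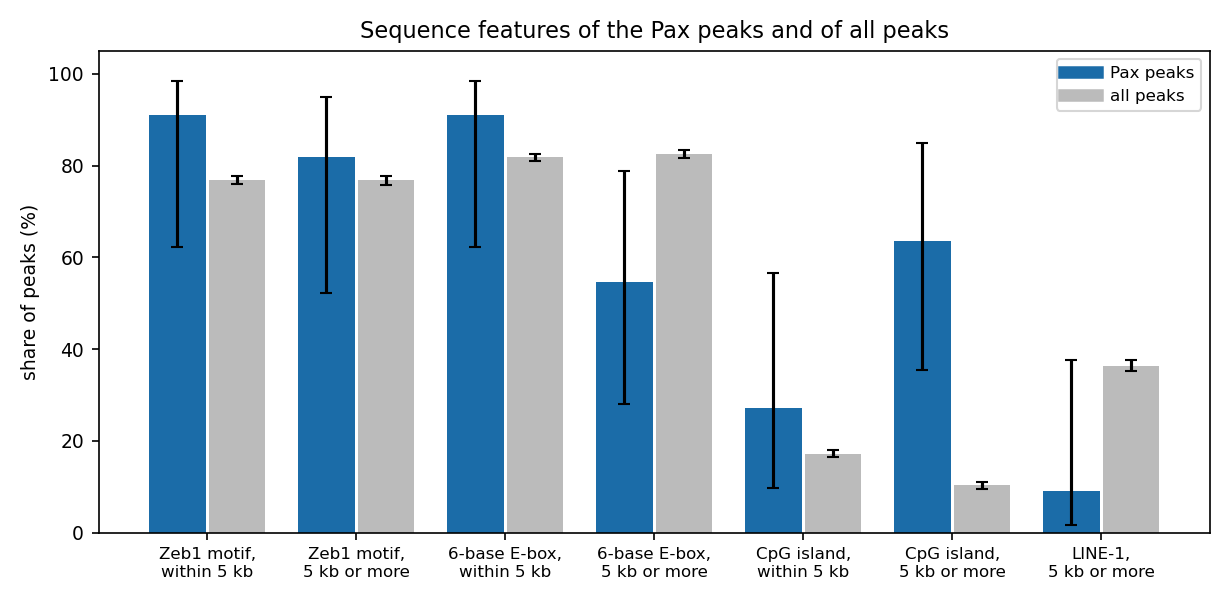
Share of peaks (%, vertical axis) with the Zeb1 motif, with the 6-base E-box CACCTG, in a CpG island and in a LINE-1 element, for Pax peaks (blue) and all peaks (grey), split at 5 kb from the TSS as labelled; error bars show the 95% Wilson interval of each share (counting error). Among distal peaks, the share in a CpG island was 63.6% for Pax and 10.3% for all peaks, the share with CACCTG was 54.5% and 82.5%, and the share with the motif was 81.8% and 76.8%, by the distance in the list.

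Few other protein-coding TSSs lay near those of the Pax genes. The median number of other protein-coding TSSs within 100 kb of the most upstream Pax TSS was 0, whereas it was 3 over the 21000 protein-coding genes with a curated TSS. Even so, the median number of peaks within 100 kb was 3 for Pax genes and 2 for all genes. It was highest for Pax2, with 9 peaks, more than 89.6% of all genes, followed by Pax5, Pax6 and Pax9 with 4 each and Pax4 and Pax7 with 3 each. Pax1 had 2, and Pax3 and Pax8 had 1 each. The Pax6 count includes the LINE-1 peak that the list assigns to Paupar. A peak overlapped the gene with 5 kb on either side in 7 of the 9 Pax genes, against 57.4% of all protein-coding genes, and 4 of the overlapping peaks were assigned elsewhere, 3 of them in Pax5 and 1 in Pax2.

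Other families of developmental transcription factors gave shares like that of the Pax genes. At least 1 peak was assigned to 17 of 19 Sox genes (89.5%), 14 of 17 T-box genes (82.4%) and 38 of 44 Fox genes (86.4%), beside 88.9% of the Pax genes. The mean number of peaks per gene was 2.44 for Pax, 1.79 for Sox, 1.82 for T-box and 1.77 for Fox genes, and the Pax mean includes the 8 peaks of Pax2, while no Sox or T-box gene had more than 4 and no Fox gene more than 5. The best promoter peak of each gene had a median enrichment of 7.93 in Pax, 9.27 in Sox, 8.93 in T-box and 8.99 in Fox genes, so that Pax was the lowest of these families, and 6.84 over all protein-coding genes with a promoter peak.

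Pax proteins work with other nuclear proteins in a network that patterns eye, ear and kidney. Of 11 genes of this network, Six2 to Six6, Eya1 to Eya4, Dach1 and Dach2, 10 had an assigned peak (90.9%, against 51.4% of all protein-coding genes), and Dach2 had none. Promoter peaks were assigned to 8 of them (72.7%, against 43.5%), with a median enrichment of 6.93 for the best peak of each gene. The highest was at Six3, a regulator of forebrain and eye, with 70.6 treatment and 9.71 input reads and an enrichment of 15.3. Six2, which maintains kidney progenitors, and Eya2 had the most peaks, with 3 each.

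Of 7 genes for Pax cofactors, 6 had an assigned peak (85.7%, against 51.4% of all protein-coding genes), and Paxbp1 had none. The highest promoter enrichment was 11.1 at Tle3, a Groucho corepressor, with 216 treatment reads and 39.6 input reads. Tle1, Tle2, Tle4 and Tle5 had the most peaks, with 2 each. Paxip1, named for its binding to Pax proteins, had 1 peak with an enrichment of 4.05.

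Genes known as targets of Pax proteins in differentiated tissues and their precursors were counted last. Peaks were assigned to 9 of 17 (52.9%), near the 51.4% of all protein-coding genes, and all 9 had a promoter peak (52.9%, against 43.5%). Of all protein-coding genes with an assigned peak, 84.6% had a promoter peak. Nkx3-2, a target of Pax1 and Pax9 in the sclerotome, had the highest promoter enrichment at 12.6, with 90.6 treatment reads and 14 input reads. En2, Lhx1, Slc5a5, Neurog2 and Msx1 had the most peaks, with 2 each. The 8 without a peak were the melanocyte regulator Mitf, the muscle regulator Myf5, the B cell genes Cd79a and Blk, the thyroglobulin gene Tg, the glucagon gene Gcg, the lens crystallin gene Cryaa, and Bmp4.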

How the data were processed

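The data were 3 Zeb1 ChIP libraries and 1 input library of mESC in GS, held in 1 list of unified peaks. By the study's methods, the authors drew 30 M Ion Torrent reads from each library, mapped them on mm10 by STAR (2.4.2a in the submitters' processing notes), removed duplicates with Picard (1.136), called peaks against the input, kept those with at least 20 treatment reads and an enrichment of 2, unified peaks present in at least 2 ChIP libraries, and took gene names from HOMER (4.7). The reads of each peak are a signal, averaged by the authors after scaling for depth. Enrichment is the ratio between ChIP and input, scaled for mapped reads and averaged by the authors. The deposited p-value was 0 in every peak and was not used. The treatment reads of Pax peaks were whole numbers in 8 peaks, and in the rest became whole within 0.01 on multiplication, by 2 for 6 peaks, by 5 for 3 peaks and by 7 for 5 peaks. The study's methods describe reads recounted in each sample, brought to the same depth and averaged over samples, and a mean of whole reads over 2 or 3 libraries would not give the divisors 5 and 7. The enrichment was a median of 2.07 times the ratio of the deposited reads in peaks with an input read, and all values are given as deposited. Depth per library was not analysed here.

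Peaks were placed on GRCm38.p6 with 45756 curated RefSeq transcripts, and genes were matched by gene identifier. Where several transcripts applied, an exon took precedence over an intron. Of the Pax distances, 8 lay within 2 bp of a distance to the nearest curated TSS in size, and in all 8 a positive sign meant downstream, the opposite of the list's legend. That sign was used. Motif search and feature placement were tested on simulated data. Shares have 95% Wilson intervals, which treat each peak as independent. No difference was tested. Members and lists were chosen with earlier results of these data known.

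Named genes were, by rule, the Pax genes with each assigned peak, genes the list names for other peaks overlapping a Pax gene, neighbouring protein-coding genes beside distal peaks, and of each fixed list the gene with the highest promoter enrichment, those with most peaks and those without a peak. Of the fixed lists, 3 genes are not reported here and were left out of the counts, which are over the remaining members. AI646519, Paupar, Fscn3, Arf5, Gcc1 and Paxip1 were named after their values were seen. Alternatives were other ways of assigning peaks, other distances and motif searches, and stricter limits on enrichment and reads. The tools were pysam 0.24.0 under Python 3.11.15, pandas 2.3.3, SciPy 1.17.1, matplotlib 3.10.9 and NumPy 2.4.6.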

Additional observations from a re-analysis of the deposited data

How the results depend on the processing

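The number of Pax genes with an assigned peak was 7 or 8 under each alternative tried. The number of Pax peaks was 22, and from 17 to 29 when peaks were assigned by overlap or by the nearest protein-coding TSS, when close peaks were merged or when an enrichment of at least 5 was required, but 10 with at least 50 treatment reads, a limit that leaves fewer peaks by its construction. Pax genes with a promoter peak, by the TSS the list uses, numbered 7 at 5 kb and 10 kb and 3 at 1 kb. The shares of promoter and distal Pax peaks by the nearest curated TSS are given with the results. The median enrichment of 6.86 became 6.57 from the ratio of the averaged reads, itself 3.16, once that ratio was scaled so that all peaks had the median of the enrichment column, 7.11 in promoter peaks and 8.78 over the best peak of each gene. The motif was found in 19 Pax peaks, in 13 on the forward strand and in 2 within the central 200 bp, a shorter sequence by construction. On the forward strand alone the share was 59.1% of Pax peaks and 54.4% of all peaks. With both strands searched it was 86.4% and 76.8%. Chosen after seeing the data, an enrichment of at least 5 left 23 of the 31 peaks within 100 kb of the Pax TSSs, leaving out the LINE-1 peak left 21 assigned peaks, and 7 Pax genes had an assigned peak within 100 kb that was not centred in another protein-coding gene.

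No paired analysis was possible because the list holds averaged values and no test was made. Leaving out each library was not run, since it needs values per library. The averaged values do not show how far the libraries differed, and with 22 peaks the intervals of shares are wide. Binding between called peaks, and at Pax4, was not measured by a list that holds peaks above a minimum only.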
